A study of Mus musculus with 12 samples.

Results

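The cytoplasmic ribosomal protein genes were followed through RNA sequencing of mouse S1 gastric cancer cells that carried a knockout (KO) of Rasa1, of Nf2 or of both. They were taken as the protein-coding genes whose symbols are Rpl or Rps with a number and at most a short suffix, Rplp0, Rplp1, Rplp2 or Rpsa, which gave 81 of the 18926 genes in the tables, 49 of the large ribosomal subunit and 32 of the small. Levels did not enter the choice. The S1 line came from a gastric tumour of a mouse with Cdh1 F/+, Trp53 F/F and Smad4 F/F alleles, so every group shared that background, and the knockouts were made with Cas9 and lentiviral guide RNAs. The groups were control (3 libraries), Rasa1 KO (3), Nf2 KO (3) and Rasa1 KO with Nf2 KO, called double KO (3). The cells were seeded on low-attachment plates, either in a supplemented medium with epidermal growth factor or in a tumorsphere medium, to grow as tumorspheres, although the labels name monolayer cells, and no cloning of single cells was described. Total RNA was depleted of ribosomal RNA, so ribosomal protein mRNA was measured beside other coding and non-coding RNA.

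Each ribosomal protein is needed in about equal number in a ribosome, and their mRNAs are among the most abundant of a dividing cell. Many begin with a C followed by a run of pyrimidines, the 5′ terminal oligopyrimidine (TOP) tract, through which mTORC1 and the RNA-binding protein Larp1 set how much they are translated, while MYC is known to raise transcription of ribosomal genes. Nf2 (merlin) acts upstream of the Hippo kinases, and Rasa1 is a GTPase-activating protein that switches RAS off.

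The 2 targeted genes were read first as a check of the labels. Nf2 stood at 14.9, 21.3 and 22.5 TPM (transcripts relative to all transcripts of a library, corrected for length) in control, at 4.26, 5.45 and 3.50 in Nf2 KO, at 2.93, 2.98 and 3.39 in the libraries labelled Rasa1 KO, and at 14.4, 15.1 and 17.4 in those labelled double KO. Rasa1 stood at 14.2, 22.9 and 29.1 TPM in control, at 26.2, 28.2 and 23.4 in Nf2 KO, at 7.34, 6.89 and 6.38 in the libraries labelled Rasa1 KO, and at 3.77, 5.04 and 6.73 in those labelled double KO. Nf2 mRNA was thus low in the libraries labelled Rasa1 KO and near control in those labelled double KO, the reverse of those labels, and the deposited tables of these 6 libraries carry the name of the other group. They are called by their labels below, with values for exchanged labels. Each dot of the study's own overview was described as a technical replication, so p-values here measure the spread between libraries, which may be technical. In the fit of all 12 libraries that spread was estimated per gene over all groups together. Tests between knockout groups therefore also carry the control spread. Tests against control also carry the spread of the knockout groups, in the median the smaller one on the count scale. Total counts ran from 43818139 to 96674463 per library. Of 7 gastric epithelial markers 6 reached 1 TPM in at least 1 library, and their summed level, nearly all of it keratins, ran from 3792 to 5422 TPM, with Cldn18, the stomach claudin, at 0.21 TPM or less. The adhesion molecule Epcam went from 36.0 to 56.6 TPM in control to 10.99 to 12.5 in labelled Rasa1 KO, 6.08 to 7.28 in Nf2 KO and 12.1 to 28.7 in labelled double KO, and the mucin Muc1 from 9.45 to 37.5 TPM in control to 3.15 to 3.998, 1.99 to 2.84 and 11.6 to 13.7. Of 4 blood cell markers 2 were in the tables, with a summed level of 5.32 to 11.8 TPM in control, 17.1 to 20.2 in labelled Rasa1 KO, 14.2 to 16.5 in Nf2 KO and 6.07 to 18.5 in labelled double KO, nearly all of it Cd68. The summed fibroblast markers, with 2 of 3 in the tables, stood at 20.001 to 78.6 TPM in control, 20.6 to 23.7 in labelled Rasa1 KO, 39.4 to 46.5 in Nf2 KO and 8.40 to 10.4 in labelled double KO. Their members did not move together: Dcn lay at 19.96 to 76.8 TPM in control, 15.4 to 16.5 in labelled Rasa1 KO, 24.4 to 28.6 in Nf2 KO and 8.23 to 10.2 in labelled double KO, and Pdgfra at 0.0367 to 1.78, 5.23 to 7.25, 14.8 to 17.9 and 0.0507 to 0.216. The part of these markers in the results was not tested. The endothelial marker in the tables, Pecam1, did not pass 0.472 TPM.

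RefSeq start sites on GRCm38.p6 were at hand for 61 of the 81 genes, with 72 starts in all. A C at the start followed by 4 pyrimidines (each C or T, read on the coding strand only) was present at a start of 14 of the 61 genes (23.0%), against 330 of 11103 protein-coding genes with a start (2.97%). Allowing the same 5 letters to begin anywhere from 10 bases before the start to 9 after it, 37 ribosomal protein genes held it (60.7%) against 35.9% of all. These matches describe letters in a window and depend on where RefSeq sets the start. The windows below run from 15 bases before the start to the 15th base from it, 5′ to 3′, with the longest unbroken run of C and T in capitals; they are shown for 6 genes named in the results that hold such a run and for the 3 paralogues that stood apart from the rest, using the first start listed.
Rpl28 (chr7:4792950-4792979, plus strand): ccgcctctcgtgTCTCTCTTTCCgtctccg
Rps15a (chr7:118116133-118116162, minus strand): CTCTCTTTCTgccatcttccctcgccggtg
Rps27 (chr3:90213634-90213663, minus strand): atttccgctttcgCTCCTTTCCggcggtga
Rpl7a (chr2:26910792-26910821, plus strand): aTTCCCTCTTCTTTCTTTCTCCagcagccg
Rpl27a (chr7:109519180-109519209, plus strand): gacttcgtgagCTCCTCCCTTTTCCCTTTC
Rps26 (chr10:128626492-128626521, minus strand): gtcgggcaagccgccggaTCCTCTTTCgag
Rps27l (chr9:66946071-66946100, plus strand): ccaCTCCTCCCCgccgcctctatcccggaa
Rpl22l1 (chr3:28805493-28805522, plus strand): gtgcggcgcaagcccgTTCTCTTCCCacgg
Rpl7l1 (chr17:46782642-46782671, minus strand): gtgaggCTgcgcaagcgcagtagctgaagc
Rpl28, Rps15a and Rps27 have the C and 4 pyrimidines exactly at the start. In Rps15a they are in lower case, because a longer run lies before them. Rpl7l1, a paralogue of Rpl7, has no run longer than 2. The same holds for Rpl24 and Rps3a1, which both rose in labelled Rasa1 KO against control (log2 fold changes 1.21 and 0.68).

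Levels per transcript length differed widely within the family. Rps12, of the small subunit, had the highest mean TPM over all libraries, with 2475, 1898 and 1636 in control, and was followed by Rpl41, a very short protein, with 2358, 1868 and 1539. Next in order stood Rpl23a, which sits at the exit of the nascent-chain tunnel, with 1515, 1519 and 1573 TPM in control. Rplp0, the base of the ribosomal stalk, had 2086, 1677 and 1561 and Rpl8, next to the catalytic centre, 1734, 1492 and 1270.2. In control each of these genes overlapped its neighbour in that order, so the order of neighbours cannot be told beyond the spread between libraries. Every control value of Rps12 lay above every control value of Rpl23a. At the low end were Rps20 (159.6, 123 and 146 TPM in control) and Rps27l (145, 112 and 133), which overlapped, then Rps15a (82.0, 68.8 and 77.6) and Rpl7l1 (59.3, 46.9 and 45.9), each clear of the gene above it. Lowest was Rpl32l, a copy of Rpl32 annotated on chromosome 10, which lay between 0.174 and 0.564 TPM and had 3 counts at its minimum. The other 80 genes had over 1000 counts in every library, so counting error was small beside the spread between libraries. TPM rests on the transcript length assigned to a gene, and reads of ribosomal protein genes can be shared with their many processed pseudogenes.

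The joint share of the 81 genes in all counts was lowest in control. In control it was 4.62% in the library without a number in its title, 3.18% in library 1 and 2.70% in library 2 (3.50% ± 0.999, SD, n = 3). Libraries labelled Rasa1 KO had 6.65%, 6.21% and 6.65% (6.50% ± 0.256, n = 3), and Nf2 KO had 5.47%, 5.76% and 6.20% (5.81% ± 0.366, n = 3). Those labelled double KO had 4.19%, 4.23% and 4.35% (4.26% ± 0.0806, n = 3). Every library of the labelled Rasa1 KO and Nf2 KO groups lay above every control library, while the labelled double KO libraries lay inside the control range. With 3 libraries against 3 no exact permutation test can go below p = 0.1, and the sum was therefore only described. On the log2 scale the shares exceeded control by 0.93 for labelled Rasa1 KO, 0.77 for Nf2 KO and 0.32 for labelled double KO. In summed TPM the share was 7.14%, 5.90% and 5.70% in control, 9.50%, 9.31% and 9.30% in labelled Rasa1 KO, 9.36%, 10.0% and 9.71% in Nf2 KO and 6.05%, 6.76% and 7.83% in labelled double KO, with the same groups clear of control and smaller log2 differences of 0.59, 0.64 and 0.14. The small subunit gave between 36.4% and 38.2% of the counts of the family in every library, so the balance between the subunits hardly moved. Without the unnumbered control library the log2 differences in counts were 1.15, 0.99 and 0.54, and without control 2 they were 0.76, 0.60 and 0.15. In such bulk libraries fewer cells of a type and less RNA per cell cannot be told apart.

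**Figure D1:**
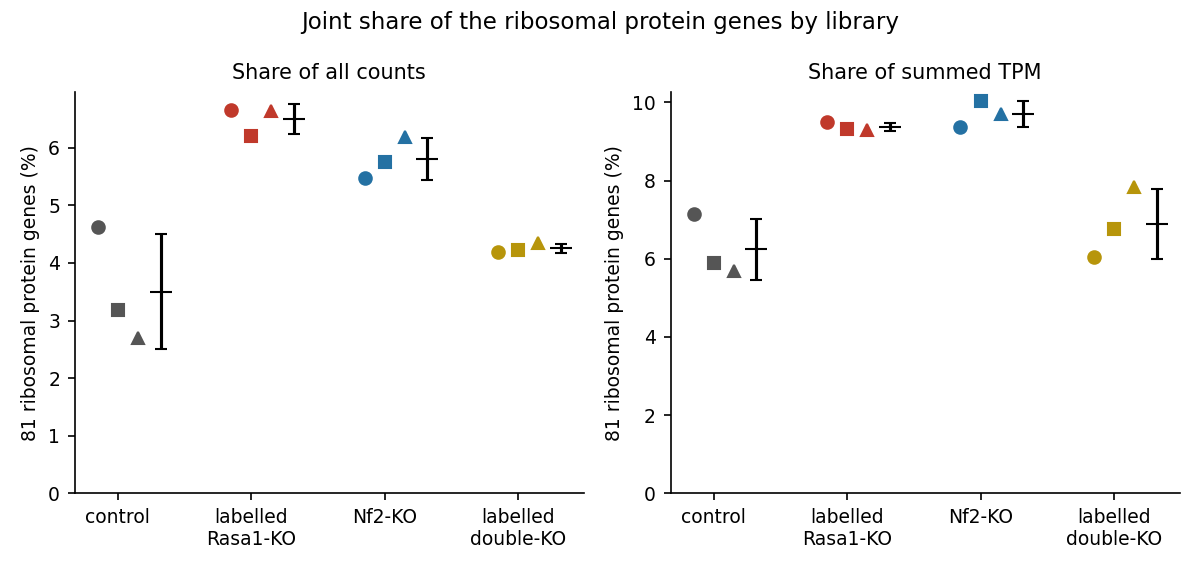
Joint share of the 81 ribosomal protein genes in all counts (left) and in summed TPM (right), in percent, for each of the 12 libraries; the symbols are single libraries in the order unnumbered, 1 and 2 or 1, 2 and 3, and the bar is the mean with its SD (n = 3). Counts of the 3 control libraries span 2.70% to 4.62%, and the labelled Rasa1 KO and Nf2 KO libraries lie above them.

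Spread within control was, in the median, larger than in any other group on the count scale. The SD of log2 CPM (counts scaled to the library size) over the 3 control libraries had a median of 0.53 over the 81 genes, from 0.25 for Rpl29 to 0.74 for Rps16, beside a median of 0.39 over all 18053 genes tested. In labelled Rasa1 KO the same median was 0.08 (all genes 0.11), in Nf2 KO 0.12 (0.12) and in labelled double KO 0.08 (0.18). All 81 genes were highest in the unnumbered control library, as were 45.5% of all genes tested, and 77 of 81 were lowest in control 2, as were 39.5% of all genes. The family stood 0.83 above the mean of the other 2 control libraries in the unnumbered library, in the median, and 0.65 below it in control 2. The tenth of the other protein-coding genes with the shortest transcripts, read from counts per TPM, deviated in the same direction, by 0.70 and -0.54, and the tenth with the longest by -0.68 and 0.43. Of the 81 genes, 65 fell in that shortest class. Total counts of the control libraries ran in the same order, at 95340850, 69091487 and 43818139, as did the share of the 3 7S RNAs (11.1%, 9.15% and 7.17%). The part of length, depth and 7S RNA in the control spread was not tested. On the log2(TPM + 1) scale, which divides by length, the median SD was 0.20 in control, 0.04 for labelled Rasa1 KO, 0.07 for Nf2 KO and 0.20 for labelled double KO.

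Rps16, which lines the decoding site, had the largest SD in control, with 138, 96.9 and 50.1 CPM. Rpl22l1 came next (105, 40.9 and 51.1 CPM), then Rpl13a, which also serves in a complex that silences translation of inflammatory mRNAs (1137, 664 and 428 CPM). For Rps16 and Rpl13a control 2 was the low library, whereas for Rpl22l1 it was control 1.

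Against control, nearly the whole family was higher in the libraries labelled Rasa1 KO. By edgeR's quasi-likelihood test with Benjamini-Hochberg adjustment over all genes, 78 of the 81 genes rose at an adjusted p below 0.05, where 19.7% of all tested genes rose, and none fell, where 22.2% of all fell. The median log2 fold change of the 81 genes was 1.04, or 2.06-fold, against -0.08 for all genes, with 1.03 for the small and 1.06 for the large subunit. The libraries of the 2 groups did not overlap for 77 genes, against 24.1% of all genes for the same direction. Rpl17, a protein near the tunnel exit, rose most, from 504, 343 and 278 CPM in control to 1021, 926 and 1031 (log2 fold change 1.41 ± 0.18, adjusted p = 0.00012). Rpl22, an RNA-binding protein of the large subunit (chromosome 4, 152324436 to 152334082), rose from 316, 214 and 176 to 623, 579 and 611 CPM (1.36 ± 0.18, adjusted p = 0.00014). All labelled Rasa1 KO libraries lay above all control libraries for both genes. Rps16 rose from 138, 96.9 and 50.1 CPM to 191, 242 and 299 (1.36 ± 0.28, adjusted p = 0.0029), and its lowest labelled Rasa1 KO library was still above the highest control library. Rpl32 (1.32 ± 0.22, adjusted p = 0.00065) and Rpl27a (1.31 ± 0.19, adjusted p = 0.00029) followed, both of the large subunit. The genes not called were Rpl7l1, Rpl22l1 and Rpl32l, each a paralogue. None of the 81 reached a fold of 3 at a raw p below 0.05 in edgeR, the rule used in the study, which 3.16% of all genes passed upward; without the fold condition 78 passed the raw p. With labels exchanged, 3 genes were called.

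**Figure D2:**
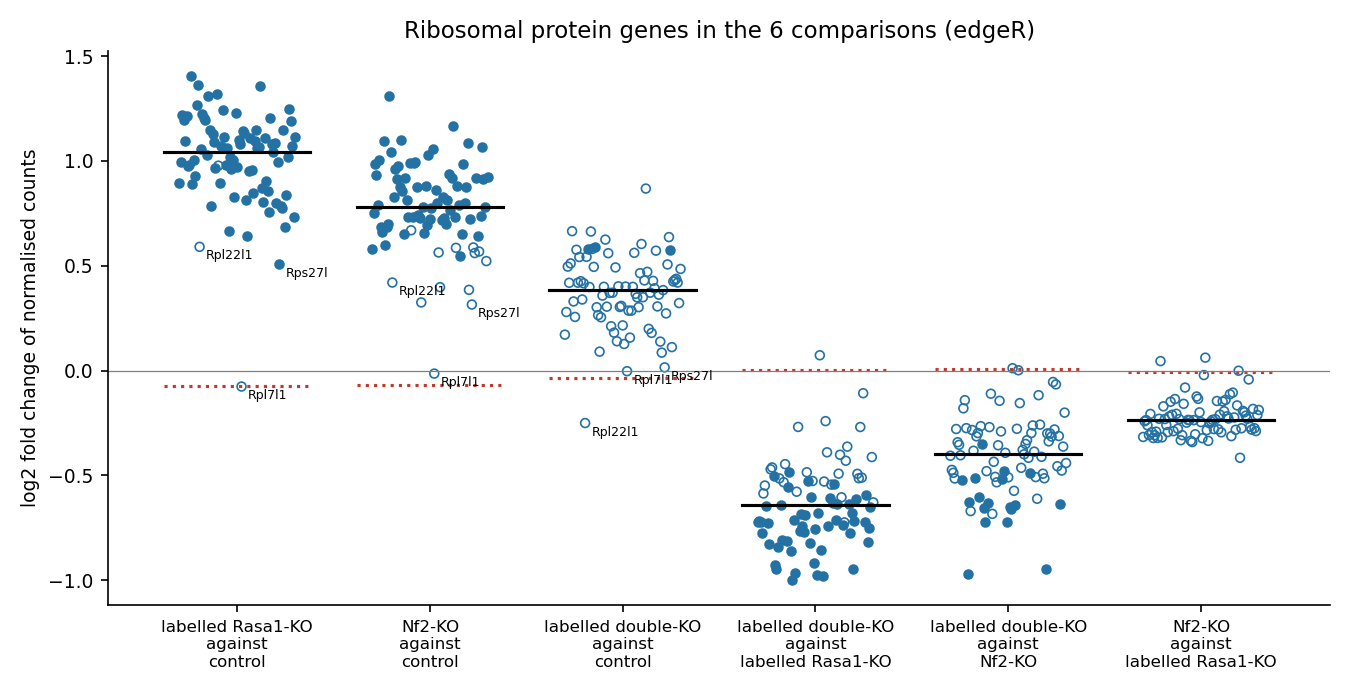
Log2 fold changes of the 81 ribosomal protein genes (points, ordered by symbol within a column) in the 6 comparisons, from edgeR; filled points passed an adjusted p below 0.05, the black line is the median of the 81 genes and the red dotted line the median of all genes tested. The medians against control are 1.04, 0.78 and 0.38 from left to right.

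Nf2 KO libraries held more ribosomal protein mRNA than control as well. In this comparison 68 of 81 genes rose, where 20.6% of all tested genes did, and none fell, where 22.2% of all did (edgeR); the median log2 fold change was 0.78 (1.72-fold). Libraries did not overlap for 65 genes, against 24.4% of all genes. Rpl21, of the large subunit (chromosome 5, 146832890 to 146837032), rose most, from 589, 409 and 251 CPM in control to 949, 1029 and 1119 (log2 fold change 1.31 ± 0.23, adjusted p = 0.00082). Rps16 stood at 207, 209 and 224 CPM (1.17 ± 0.28, adjusted p = 0.0063) and Rpl17 at 756, 788 and 861 CPM (1.10 ± 0.18, adjusted p = 0.00054). Rpl27a rose by 1.10 ± 0.19, adjusted p = 0.00079. Rps26, which contacts the mRNA as it leaves the small subunit, rose from 309.6, 199 and 125 CPM to 444, 441 and 459 (1.08 ± 0.24, adjusted p = 0.0036), and its Nf2 KO libraries lay within a narrow band above every control library. The 13 genes not called had log2 fold changes of -0.01 to 0.67 and included Rplp0 (0.56 ± 0.23, adjusted p = 0.064), Rps27 (0.39 ± 0.16, adjusted p = 0.076) and all 4 paralogues. When only these 2 groups entered the fit, 32 genes were called.

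Few ribosomal protein genes passed the test between labelled double KO and control. There 3 of 81 genes rose, where 4.0% of all tested genes did, and none fell, where 2.46% of all did (edgeR), so the share was near that of all genes. Rpl28 stood at 180.1, 152 and 127 CPM in control and 221, 242 and 229.7 in labelled double KO (log2 fold change 0.59 ± 0.13, adjusted p = 0.018). Rpl23a stood at 718, 554 and 469 and 829, 878 and 898 CPM (0.58 ± 0.14, adjusted p = 0.034), and Rps3a1, of the small subunit, at 1038, 759 and 706 and 1135, 1270.2 and 1325 CPM (0.58 ± 0.15, adjusted p = 0.039). Labelled double KO libraries lay above all control libraries for these 3 genes, and Rpl28 (SD of log2 CPM 0.25), Rps3a1 (0.30) and Rpl23a (0.31) had small spread in control. Rps16 had the largest difference, 0.87, without passing the test (adjusted p = 0.096, edgeR). The median over the 81 genes was 0.38 and 79 were above 0, against 45.8% of all genes; 33 had a raw p below 0.05, against 21.2% of all, and the libraries did not overlap for 17, against 10.0% of all. The unnumbered control library decided the count of called genes: 78 were called without it. Leaving out a single other library, control 1, any labelled Rasa1 KO library or any Nf2 KO library gave 1, and labelled double KO 2 or 3 gave 0. With labels exchanged 78 genes were called, and DESeq2 called 9. By the numbers in the table names, the unnumbered tables taken as a pair, the 3 pairs of control and labelled double KO libraries deviated together. Their r was 0.31 to 0.63 across genes, which are not independent replicates. Unlike numbers came close: r was 0.26 for control 1 with number 2 (0.31 with number 1). For control 2 it was 0.40 with number 1 (0.44 with number 2), so the numbered pairs were hardly set apart. With these numbers as a block, in the fit of all 12 libraries, 18 genes were called.

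Set against each other, the knockout groups fell into a high and a low level of the family. In labelled double KO 52 of 81 genes were lower than in labelled Rasa1 KO, where 14.0% of all tested genes were, and none was higher, where 16.3% of all were (edgeR); the median was -0.64, and the libraries did not overlap for 78 genes, against 28.6% of all. Rpl30, of the large subunit, fell most, from 542, 477 and 525 CPM to 247, 251 and 274 (log2 fold change -0.9996 ± 0.20, adjusted p = 0.0033). Rpl9 (-0.98 ± 0.20, adjusted p = 0.0037), Rpl7 (-0.97 ± 0.19, adjusted p = 0.0029) and Rpl32 (-0.96 ± 0.22, adjusted p = 0.0067) followed. Rps26 fell from 435, 432 and 476 to 234, 219 and 244 CPM (-0.95 ± 0.24, adjusted p = 0.011), with a wide gap between the groups. Left out singly, labelled Rasa1 KO unnumbered gave 27 calls and labelled Rasa1 KO 2 gave 25, while labelled double KO 1, 2 and 3 gave 34, 30 and 23. Exchanging the labels turns the direction, since the same fit then counts the 52 genes as higher.

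Against Nf2 KO, 18 of 81 genes were lower in labelled double KO, where 15.3% of all tested genes were, and none was higher, where 16.9% of all were (edgeR); the median was -0.40. Rpl21 fell most, from 949, 1029 and 1119 to 504, 532 and 544 CPM (-0.97 ± 0.23, adjusted p = 0.007). Rps26 stood at 234, 219 and 244 CPM against 444, 441 and 459 (-0.95 ± 0.24, adjusted p = 0.01), and Rpl5, which with Rpl11 binds the p53 regulator Mdm2, at 890.3, 919 and 962 against 1387, 1558 and 1623 (-0.72 ± 0.21, adjusted p = 0.023). Rpl30 (-0.72 ± 0.20, adjusted p = 0.016) and Rpl7a (-0.66 ± 0.23, adjusted p = 0.048) were the others of the 5 with the largest fall among those called. Libraries did not overlap for 69 genes, against 28.9% of all, and fitting only these 2 groups called 66. With labels exchanged none was called (edgeR; 2 at a raw p below 0.05, and none in DESeq2), and Rpl30 (0.28), Rpl5 (0.20), Rpl7a (0.021) and Rps26 (0.00043) turned to the other sign. With the numbers of the table names as a block 46 were called. The count moved with single libraries: it was 60 without the unnumbered control library, 38 without control 2, 11 without any 1 of the labelled Rasa1 KO libraries, 10, 4 and 2 without Nf2 KO 1, 2 and 3, and 4, 3 and 3 without labelled double KO 1, 2 and 3.

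As labelled, the smallest median difference between knockout groups was that of Nf2 KO from labelled Rasa1 KO. The test called 0 of 81 genes (edgeR; 2 at a raw p below 0.05), where it called 1.74% of all genes higher and 1.92% lower. The median was nevertheless -0.24, 79 genes were lower in Nf2 KO, and the libraries did not overlap for 51, against 19.5% of all in that direction. DESeq2 called none, fitting only these 2 groups called 46, and leaving out the unnumbered control library called 5. With labels exchanged 18 genes were called, all higher in Nf2 KO, with a median of 0.40. In summed TPM the 2 groups overlapped.

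**Figure D3:**
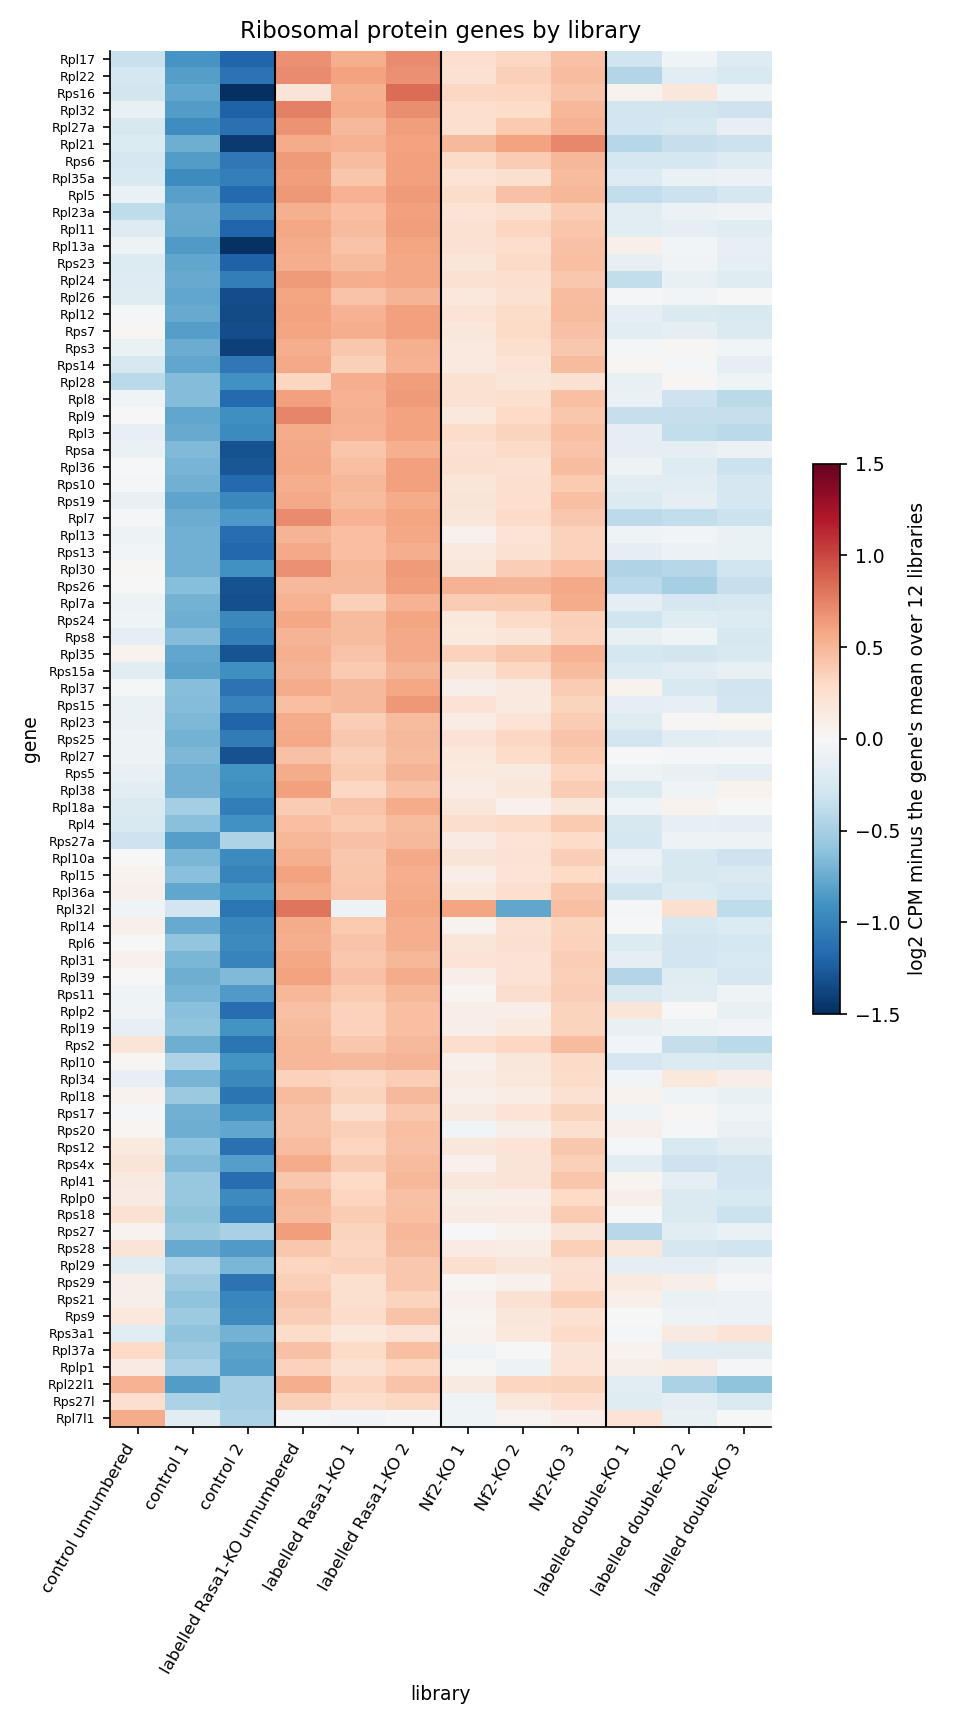
Log2 CPM of each ribosomal protein gene (rows, ordered by their change in labelled Rasa1 KO against control) in each library (columns), minus the mean of the gene over the 12 libraries. The control columns 1 and 2 are lowest for nearly every gene, the unnumbered control column is near the labelled double KO columns, and Rpl7l1 in the bottom row is highest in the unnumbered control library.

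Whether the effects of the single knockouts add up was asked of the labelled groups, as a comparison chosen after the data were seen. Labelled double KO lay below the sum of the labelled single effects by 1.44 on the log2 scale in the median, and 77 of 81 genes departed from the sum downward, where 24.9% of all tested genes did (edgeR, adjusted p below 0.05). With labels exchanged, no ribosomal protein gene departed (1 at a raw p below 0.05), where 2.69% of all departed upward and 3.72% downward, and the median departure was -0.14 with a median standard error of 0.29. The count thus depended on which of the 6 libraries carry which label.

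By symbol, 4 genes of the family are paralogues of another member. Rpl22l1 (chromosome 3, 28805508 to 28807424), whose mRNA the Rpl22 protein is known to repress, stood at 105, 40.9 and 51.1 CPM in control, 107, 91.0 and 98.3 in labelled Rasa1 KO, 79.9, 91.0 and 92.0 in Nf2 KO and 64.8, 52.6 and 47.9 in labelled double KO. It was lower in labelled double KO than in labelled Rasa1 KO (log2 fold change -0.84 ± 0.28, adjusted p = 0.038, edgeR) and passed no test against control. Of the summed TPM of Rpl22 and Rpl22l1, the paralogue made up 59.7, 45.7 and 56.7% in control, 42.5, 40.5 and 41.2% in labelled Rasa1 KO, 43.9, 44.9 and 43.5% in Nf2 KO and 50.7, 40.7 and 39.0% in labelled double KO. Both knockout groups with high ribosomal protein mRNA lay below every control library in this share, as did labelled double KO 2 and 3.

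Rpl7l1 (chromosome 17, 46773907 to 46782656), known from ribosome assembly rather than as a standard subunit, was the gene least moved in counts. It stood at 131, 79.7 and 63.7 CPM in control, 86.7, 86.5 and 87.0 in labelled Rasa1 KO, 85.1, 91.4 and 95.1 in Nf2 KO and 102, 82.4 and 89.3 in labelled double KO, with log2 fold changes against control of -0.08, -0.01 and -0.00272, each with a standard error near 0.21. Its share of the summed TPM of the pair with Rpl7 was 3.99, 4.02 and 3.50% in control, 1.64, 1.86 and 1.78% in labelled Rasa1 KO, 2.31, 2.30 and 2.22% in Nf2 KO and 4.05, 3.23 and 3.38% in labelled double KO. The labelled Rasa1 KO and Nf2 KO libraries did not overlap with the other groups in this share. Rps27l (chromosome 9, 66944624 to 66949522), a known p53 target, stood at 62.9, 37.9 and 37.1 CPM in control and 67.7, 63.2 and 65.4 in labelled Rasa1 KO (0.51 ± 0.18, adjusted p = 0.038), and its partner Rps27 at 446, 292 and 307 and 668, 543 and 611 (0.80 ± 0.16, adjusted p = 0.0025). Its share of the pair was 8.75, 8.04 and 7.44% in control and 6.44, 7.31 and 6.80% in labelled Rasa1 KO, 7.38, 8.19 and 8.002% in Nf2 KO and 8.96, 7.77 and 7.08% in labelled double KO. Rpl32l stayed under 0.04% of its pair with Rpl32 in every library.

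**Figure D4:**
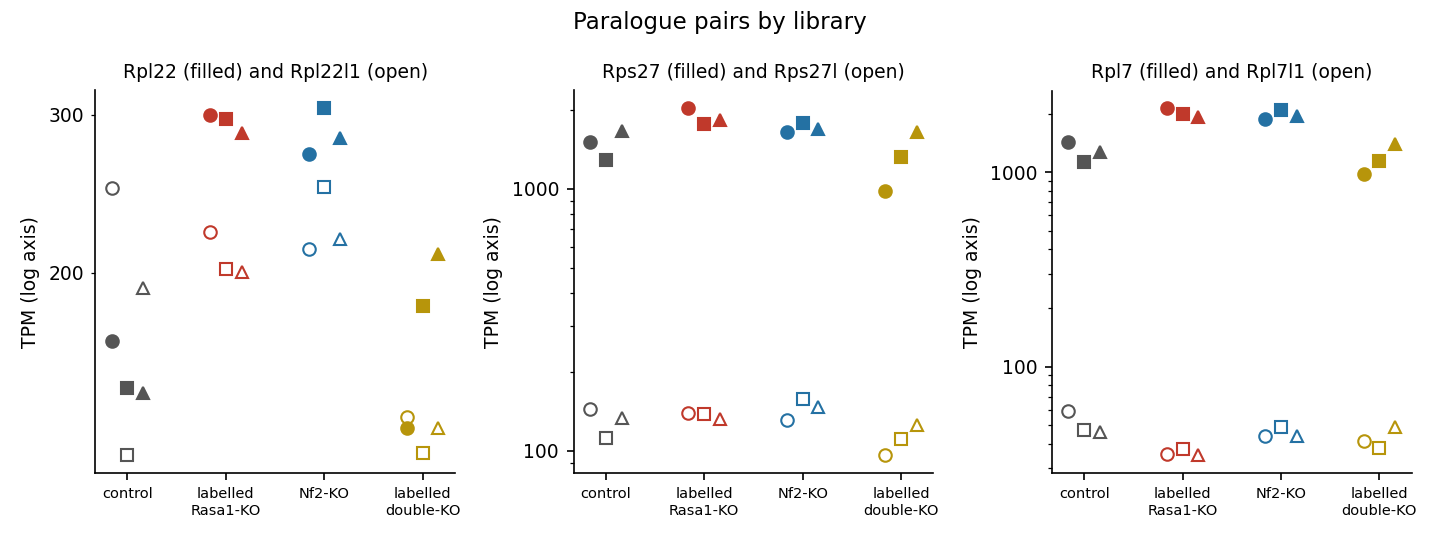
TPM (log axis) of Rpl22, Rps27 and Rpl7 (filled) and their paralogues Rpl22l1, Rps27l and Rpl7l1 (open) in each library of the 4 groups; each symbol is a single library. The main members of the Rpl22 and Rpl7 pairs are higher in the labelled Rasa1 KO and Nf2 KO libraries than in control, and Rpl7l1 is not.

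Genes that work beside the ribosomal proteins were read from fixed lists, whose counts stand against 19.7%, 20.6% and 4.0% of all tested genes that rose, and 22.2%, 22.2% and 2.46% that fell, in labelled Rasa1 KO, Nf2 KO and labelled double KO against control. Of 20 translation factors and other mRNAs known to have TOP tracts, 17 rose (85%) and 0 fell in labelled Rasa1 KO, with a median of 0.80, and 14 rose (70%) and 1 fell in Nf2 KO (median 0.64). In labelled double KO 1 rose (5%, near the share of all genes; median 0.24). Vim, the intermediate filament vimentin, rose most in all 3 comparisons (2.15, 2.20 and 0.95), followed by Npm1, a nucleolar chaperone (1.34 in labelled Rasa1 KO and 1.22 in Nf2 KO), while Eif3f, a subunit of an initiation factor, fell in Nf2 KO (-0.78). Fau, whose product is cut into ubiquitin-like protein and the small-subunit protein eS30, rose in labelled Rasa1 KO and in Nf2 KO (1.25 and 1.02), as did Rack1, a scaffold on the small subunit (1.08 and 0.87). Of 41 ribosome biogenesis genes, 12 rose (29.3%) and 2 fell (4.88%) in labelled Rasa1 KO (median 0.21), 13 rose (31.7%) and 2 fell in Nf2 KO (0.22) and none was called in labelled double KO (0.01; 5 at a raw p below 0.05 in edgeR). Polr1d, shared by RNA polymerases I and III, rose most (1.17 and 1.11), then Gnl3 (nucleostemin; 0.89) in labelled Rasa1 KO and the box C/D protein Nop56 (0.78) in Nf2 KO, while Rrp12 fell in both (-0.49 and -0.32).

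Among 78 mitochondrial ribosomal protein genes, 23 rose (29.5%, against 19.7% of all) and 0 fell in labelled Rasa1 KO (median 0.33), 14 rose (17.9%, below the 20.6% of all) and 2 fell in Nf2 KO (0.18), and none was called in labelled double KO (0.03; 4 at a raw p below 0.05 in edgeR). Mrpl30 rose most in labelled Rasa1 KO (1.13). Of 18 regulators, 6 rose (33.3%) and 8 fell (44.4%) in labelled Rasa1 KO (median -0.26), and 4 rose (22.2%) and 5 fell (27.8%) in Nf2 KO (-0.12), the latter near the shares of all genes. Eif4ebp1, a translation repressor and mTORC1 substrate, rose in labelled Rasa1 KO (1.68), Nf2 KO (1.69) and labelled double KO (0.86), and was the only regulator called in the last. Myc rose in labelled Rasa1 KO (1.17), while Mycl fell there (-2.55) and in Nf2 KO (-1.82), as did Mycn (-1.49 and -2.08), Eif4ebp2 (-1.72 and -1.91) and Mtor (-0.53 in both). Of 140 annotated ribosomal protein pseudogenes 120 were tested, and 82 rose (68.3%) in labelled Rasa1 KO (median 0.93), 52 (43.3%) in Nf2 KO (0.68) and 2 (1.67%, below the 4.0% of all) in labelled double KO (0.28). Per 100 counts of the 81 genes their counts were 2.83 to 2.88 in control and 2.57 to 2.69 in labelled double KO. The ratio was 2.94 to 3.04 in labelled Rasa1 KO and 2.98 to 3.03 in Nf2 KO. It was thus below control in labelled double KO and above control in the other knockout groups. Reads may be shared between pseudogene and parent.

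Transcript length and abundance moved with the result. Among other protein-coding genes, the tenth with the shortest transcripts had median log2 fold changes against control of 0.30 for labelled Rasa1 KO, 0.17 for Nf2 KO and 0.09 for labelled double KO, and the tenth with the longest -0.38, -0.26 and -0.06. The 48 other protein-coding genes with a mean log2 CPM above 10 had medians of 0.61, 0.47 and 0.35, and the 351 between 8 and 10, where 62 of the 81 ribosomal protein genes lie, 0.27, 0.25 and 0.13. These medians are smaller than those of the ribosomal protein genes (1.04, 0.78 and 0.38) in each comparison. For labelled double KO the most abundant genes came close, with 0.35 beside 0.38 (median standard error of the ribosomal protein genes 0.21). Length and abundance were binned apart, so no bin matched genes for both. Within limma on log2(TPM + 1), added after the data were seen, 72 ribosomal protein genes rose and 1, Rpl7l1 (-0.47 ± 0.12, adjusted p = 0.0084), fell in labelled Rasa1 KO against control, 74 rose in Nf2 KO and 0 of 81 were called in labelled double KO, with medians of 0.62, 0.63 and 0.14; that fit called 59 lower in labelled double KO than in Nf2 KO. The part of length and abundance in the differences was not tested.

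**Figure D5:**
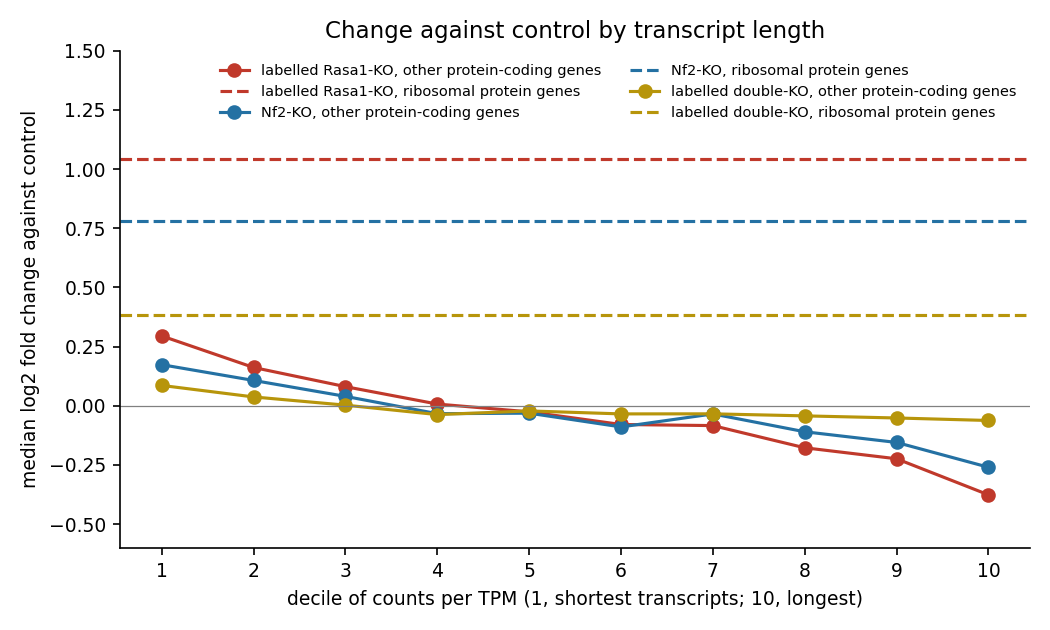
Median log2 fold change against control of other protein-coding genes by decile of counts per TPM (points; decile 1 holds the shortest transcripts) and of the 81 ribosomal protein genes (dashed lines), for the 3 knockout groups. The points fall from 0.30 to -0.38 in labelled Rasa1 KO, and every dashed line lies above the points of its group.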

How the data were processed

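RNA of 12 libraries of mouse S1 cells (4 groups of 3) was sequenced as paired ends after ribosomal RNA depletion. The authors deposited, per library, read counts per gene, not normalized, and TPM values scaled by transcript length and to a fixed total. The submitters' processing notes name Trimmomatic 0.38, HISAT2 2.1.0, SAMtools 1.9 and StringTie 2.1.3b, and the build mm10. The FPKM columns and the authors' normalized columns were not used. Coordinates and start sites are RefSeq's on GRCm38.p6, with start to end counted from 1.

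Counts of all 12 libraries were fitted together with edgeR 4.0.16 (R 4.3.3; TMM, filterByExpr, quasi-likelihood test), which left 18053 of 18926 genes, all 81 ribosomal protein genes among them. Benjamini-Hochberg adjustment ran over all 18053 genes, and a gene was called at an adjusted p below 0.05. Log2 CPM used a prior count of 2 and log2 TPM a pseudocount of 1. Errors are SD over libraries or standard errors of log2 fold changes. Alternatives were RLE factors, no filter, only the groups compared, DESeq2 1.42.0, a fold of 3 with a raw p below 0.05, exchanged labels, replicate blocks and each library left out; limma 3.58.1 on log2(TPM + 1) and the additivity contrast were added after the data were seen. Tables and figures used Python 3.11.15 with numpy 2.4.6, pandas 2.3.3 and matplotlib 3.10.9. The fit was tested on simulated data. Named were the up to 5 called genes that rose or fell most in a comparison, the paralogues with their partners, the 5 highest and 5 lowest in TPM and the 3 with the largest SD in control; Rps3a1, Rpl28 and Rpl23a enter as the 3 called genes, and Rpl29 and the genes of other lists were chosen after their values were seen. The genes and lists were chosen with earlier results of these data known. Libraries of a group differed by more than counting noise (chi-square per degree of freedom 15.2 to 543), so none is a copy of another; this does not show separate cultures. Replicate numbers of the titles paired no groups. Those of the table names met the pairing bar (every pair's deviations correlated at over 0.1, with 3 pairs) between control and labelled double KO. Numbered libraries of these groups with unlike numbers also correlated at over 0.1 (0.26 and 0.40).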

Additional observations from a re-analysis of the deposited data

Results flagged for a closer look

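By the labels, 77 of the 81 ribosomal protein genes lay below the sum of the 2 single knockout effects in the libraries labelled double KO (edgeR, adjusted p below 0.05), where 24.9% of all tested genes did, and the difference between the effects was what drew attention to it. With both labels exchanged, as the names of the deposited tables have it, 0 of 81 departed (1 at a raw p below 0.05). Mean Nf2 mRNA was 11.9 ± 0.25 CPM for labelled Rasa1 KO and 58.9 ± 3.3 CPM for labelled double KO, beside 58.2 ± 2.8 CPM for control (SD, n = 3 each).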

How the results depend on the processing

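Direction and call depended most on the labels, on the control libraries and on which groups entered the fit. With labels exchanged, 3 genes were called for labelled Rasa1 KO and 78 for labelled double KO against control, 52 were higher instead of lower in labelled double KO than in labelled Rasa1 KO, 0 were called for labelled double KO against Nf2 KO, 18 for Nf2 KO against labelled Rasa1 KO, and 0 departed from additivity; the log2 ratios of the joint share became 0.32 and 0.93. Named genes that turned sign were then higher in labelled double KO than in Nf2 KO (Rpl22 0.32, Rpl30 0.28, Rpl32 0.33, Rpl5 0.20, Rpl7 0.32, Rpl7a 0.021, Rps26 0.00043) and than in labelled Rasa1 KO (Rpl22 0.94, Rpl22l1 0.84, Rpl30 1.00, Rpl32 0.96, Rpl7 0.97, Rpl9 0.98, Rps26 0.95, Rps27 0.72).

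Fitting only the groups compared called 32 genes for Nf2 KO and 0 for labelled double KO against control, 66 for labelled double KO against Nf2 KO and 46 for Nf2 KO against labelled Rasa1 KO. Without a filter, 1 was called for labelled double KO against control and 10 against Nf2 KO. DESeq2 called 9 for labelled double KO against control. In limma on log2(TPM + 1), chosen after seeing the data, 0 were called there and 59 against Nf2 KO. A fold of 3 left 0 genes in every comparison. The cause of these shifts was not tested.

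Leaving out 1 library gave 66 to 80 calls for labelled Rasa1 KO and 54 to 80 for Nf2 KO against control, 0 to 78 for labelled double KO against control, 23 to 75 against labelled Rasa1 KO, 2 to 60 against Nf2 KO, and 0 to 5 between Nf2 KO and labelled Rasa1 KO. The log2 ratio of the joint share then ran from 0.76 to 1.15, 0.60 to 0.99 and 0.15 to 0.54.

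With a replicate block from the numbers in the titles, labelled double KO had 0 calls against control and 31 against labelled Rasa1 KO; with a replicate block from the numbers of the deposited tables it had 18 against control and 46 against Nf2 KO. Over all groups, 4 of 14 (titles) and 5 of 14 (table names) pairs with the same number had deviations correlated at over 0.1, among the latter all 3 pairs of control with labelled double KO (0.31 to 0.63), and 10 of 28 and 14 of 28 correlations were best with the own number. The block changed no other count of calls by over 1.5 times.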
